A study of Homo sapiens with 6 samples.

Results

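ONS76 is an established cell line from a human medulloblastoma, a brain tumour of the cerebellum, and carried here an inducible SOX2 construct in all samples. The values below describe its MYC peaks on chromosome 20. DNA bound by MYC was recovered with the Y69 antibody by chromatin immunoprecipitation and sequenced (ChIP-seq), and 3 MYC libraries each gave a peak list. Another 3 libraries of these cells were made with Normal IgG, a non-specific antibody, and are not analysed here. No treatment, dose or time separates the MYC libraries, so every comparison is made within a library, between chromosome 20 and chromosomes 1 to 22 without it, and is then repeated over the 3 replicates. The study's methods describe separate immunoprecipitations from one batch of chromatin that were combined. No source used here says that the replicates were grown separately, so an SD or p over them measures only how these libraries vary, which may be technical.

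Members were chosen by position alone, as all peaks whose chromosome is 20 in hg19. They numbered 1095 of 24899 peaks in replicate 1, 832 of 16809 in replicate 2 and 830 of 17298 in replicate 3, which is 2757 of 59006 peaks in all. Peaks that overlapped by at least 1 bp in any list were joined into 1289 places, of 27801 in the genome. No chromosome 20 interval was identical in any pair of lists.

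MYC is a transcription factor that pairs with MAX and binds DNA at E-box motifs, of which CACGTG is the best known, mostly near the starts of active genes. It drives genes for ribosome production, protein synthesis and cell growth, and is active in many medulloblastomas. A peak caller asks whether the fragments at a site exceed those in the DNA around it, so the local background enters each peak's call and its height. Genes at single positions are not named here, because the annotation used here is of hg38, while the peaks are in hg19. For the same reason no sequence is printed at the peaks.

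Chromosome 20 had many called places for its length. At least 2 replicates had a peak at 799 places, the consensus, or 62.0% of its places, against 62.4% of the places of the whole genome. All 3 replicates had a peak at 609 places, or 47.2%, against 45.0% of all places. The consensus reached 12.7 places per Mb up to the end of the last peak, and 5.81 per Mb on the other autosomes together, a ratio of 2.19. Only chromosomes 19 (17.2 per Mb) and 17 (14.95 per Mb) were denser among the 22 autosomes. Chromosome 20 held 4.66% of the autosomal consensus (95% Wilson interval 4.36% to 4.99%, counting error only) on 2.19% of the autosomal length.

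Genes did not follow the same order. The RefSeq table lists 537 protein-coding genes on chromosome 20, which is 8.40 per Mb of hg38 sequence and rank 7 of the 22 autosomes. Per 100 protein-coding genes the consensus numbered 149 places, the highest value of the autosomes. Chromosome 7 followed with 118 and chromosome 8 with 116, and the median of the other autosomes was 87.9. These are counts of calls, which depend on the fragments at a site, described below. They are not a measure of MYC binding per gene. Chromosome 19, the densest per Mb, had 70.02 places per 100 genes. The E-box CACGTG occurred 123 times per Mb on chromosome 20 in hg38, rank 5, against a median of 95.3 on the other autosomes. GC content was 43.8%, also rank 5. Of 921 RefSeq promoters on chromosome 20, 8.69% held CACGTG, a palindrome that reads alike on both strands. The share was 7.13% of 32804 promoters on 20 other autosomes and ran from 6.10% on chromosome 6 to 9.64% on chromosome 17.

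**Figure D1:**
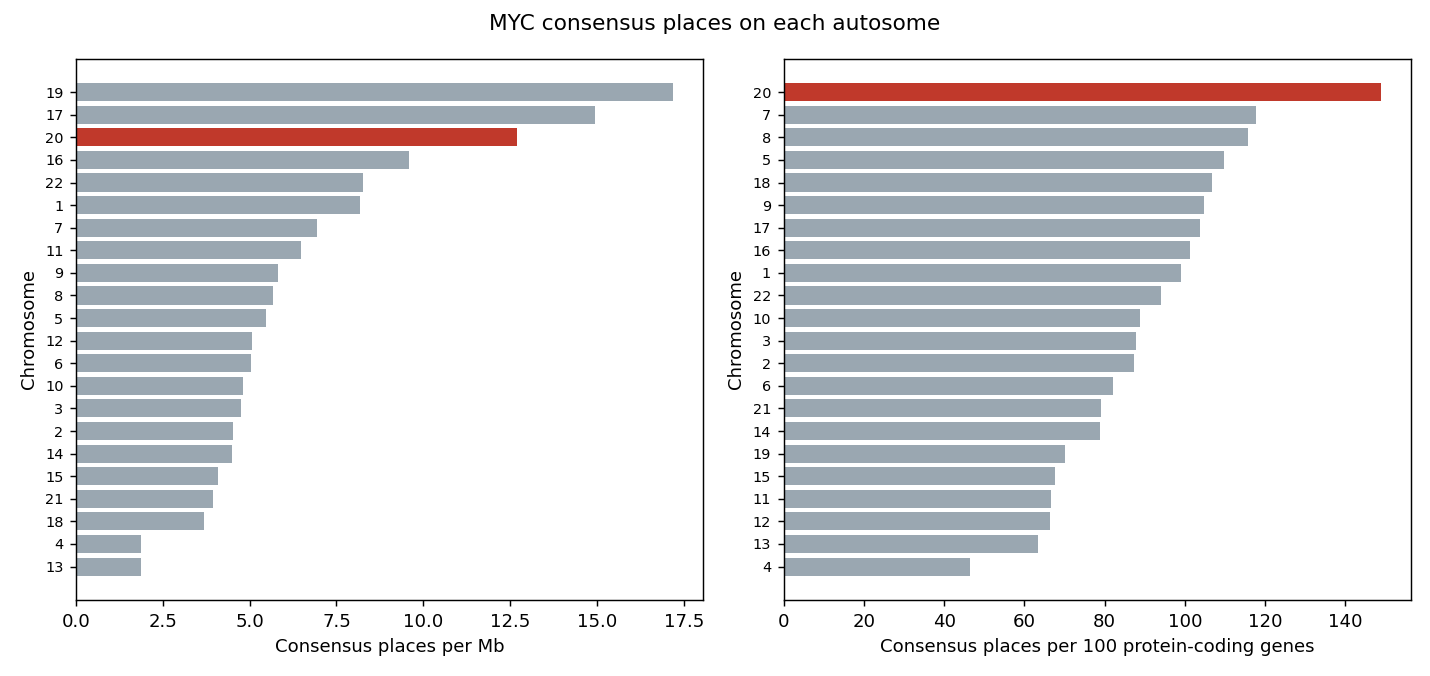
Bars show consensus places per Mb (left) and per 100 protein-coding genes of the RefSeq table (right) on each autosome, ordered by value, with chromosome 20 in red. Chromosome 20 ranks 3 of 22 per Mb at 12.7 and first per 100 genes at 149.

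Within chromosome 20, places were unevenly spread. The median stretch between neighbouring consensus places was 24.9 kb, rank 3 from the shortest of the 22 autosomes after chromosomes 19 (20.9 kb) and 17 (21.2 kb). Of the stretches, 32.1% were under 10 kb, against 34.2% on chromosome 17 and 31.6% on chromosome 19. Places per Mb had the same rank, so the short stretches are no separate sign of clustering. Consensus places had a median width of 666 bp, against 678 bp on the other autosomes, and covered 634 kb. In 63 parts of 1 Mb the median was 10 consensus places. The 10 fullest parts held 306 of them, or 38.3%, and 9 parts held none. The part at the end of the long arm was the fullest in 5 Mb steps, with 108 consensus places between position 60000001 and the last peak, or 37.4 per Mb. The parts from 5000001 to 10000000 and from 25000001 to 30000000 were the emptiest, with 25 consensus places each. In the second of these, all 25 lay between 25000001 and 26000000. From 26000001 to 29000000 there was no place, so this part is not read as evenly sparse.

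The longest stretch without a consensus place ran from 25991045 to 30101966, or 4.11 Mb, and contained 2 places found in a single replicate. The next such stretches ran from 52825087 to 54824289 (1.999 Mb, with 6 single-replicate places) and from 37681724 to 39631624 (1.95 Mb, with 5). Of the 4.11 Mb stretch, 3.62 Mb carried no peak in any list. Mappability and unsequenced gaps of hg19 were not tested, so an empty stretch is not read as sequence that MYC leaves unbound.

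Peaks on chromosome 20 had more fragments and a higher local background than those elsewhere, and a lower fold. MACS2, the peak caller, gives for each peak a fold enrichment, which is the ratio of fragments at the summit to the local background with 1 added to both, and a p-value. Both numbers behind the fold were recovered from these values. The background is a level estimated around the summit, with the genome-wide level as its floor. No source used here names the control library. That floor, which follows depth, stood at 7.79, 5.84 and 4.76 fragments in the 3 replicates. In what follows, relative background and relative fragments are multiples of that level in the same replicate.

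At the median summit of chromosome 20 there were 61, 47.5 and 43 fragments in replicates 1, 2 and 3. On the other autosomes there were 43, 33 and 30. The number was higher on chromosome 20 than on each of the other 21 autosomes in every replicate, and chromosome 7 came next with 50, 38 and 34. As relative fragments the ratio of chromosome 20 to the other autosomes was 1.42, 1.44 and 1.43, averaging 1.43 ± 0.0107 (SD, n = 3). Fragments above the local background were also more numerous, with a median of 5.76, 6.20 and 6.96 times the genome-wide level against 4.27, 4.57 and 5.10, a mean ratio of 1.36 ± 0.0069 (SD, n = 3).

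The local background differed more. Its median was 16.1, 11.1 and 9.002 fragments on chromosome 20 and 8.95, 6.07 and 4.96 on the other autosomes. The ratio in relative background was 1.80, 1.83 and 1.81, averaging 1.81 ± 0.0116 (SD, n = 3). Of chromosome 20 peaks, 98.9%, 95.2% and 95.3% had a background of at least 1.5 times the genome-wide level, against 18.6%, 7.98% and 10.1% elsewhere on the autosomes. A background at the genome-wide level was found for 1 chromosome 20 peak in each replicate, against 28.9%, 40.4% and 40.0% of all peaks in the genome. The tenth percentile of relative background on chromosome 20 was 1.69, 1.59 and 1.59, and the ninetieth percentile elsewhere was 1.67, 1.45 and 1.503, so the bulk of both distributions overlapped little.

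With a larger rise below the fraction line than above it, fold enrichment was lower on chromosome 20. Its median was 3.60, 3.90 and 4.24 there and 4.19, 4.53 and 4.84 on the other autosomes, a mean ratio of 0.865 ± 0.00969 (SD, n = 3). Fold enrichment contains the background as its denominator, so these values are not independent. Peak width differed little, with medians of 501 bp, 439.5 bp and 433.5 bp against 500 bp, 439 bp and 438 bp. The p-values were lower than elsewhere in spite of the lower fold. The median −log10 p was 17.4, 15.5 and 15.3 on chromosome 20 and 15.1, 13.3 and 13.3 on the other autosomes.

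**Figure D2:**
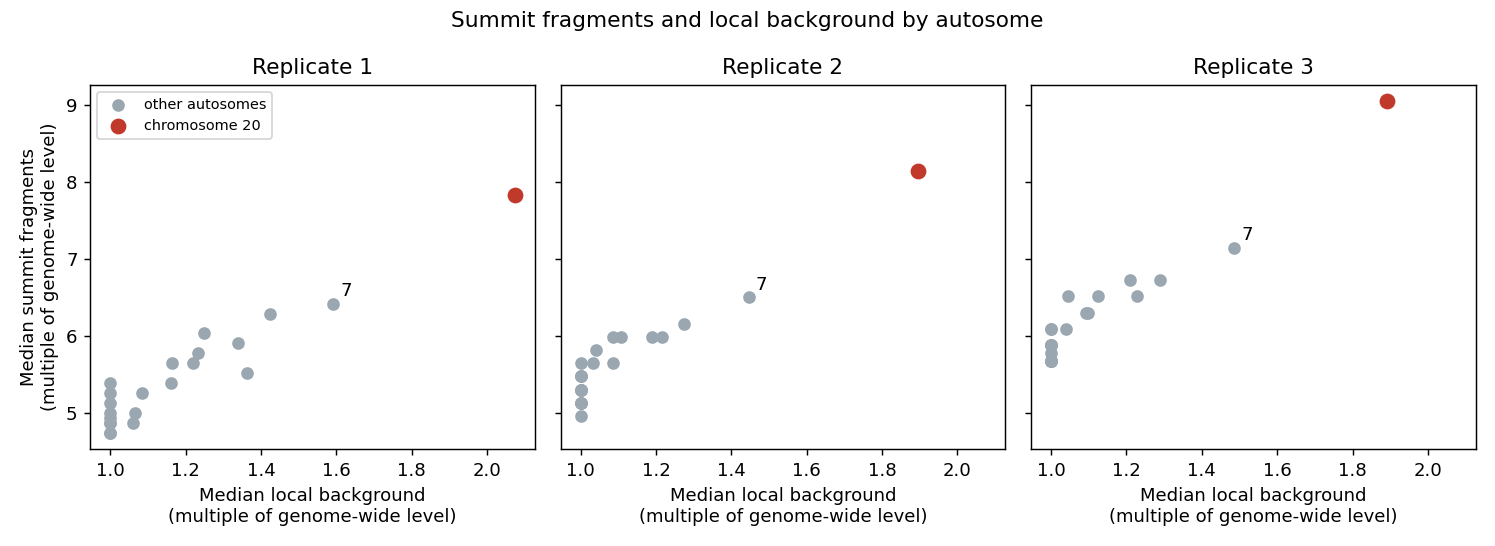
Each point is an autosome in 1 replicate (panels), placed by its median local background (x axis) and its median summit fragments (y axis), both as multiples of the genome-wide level of that replicate. Chromosome 20 (red) lies to the right of and above every other autosome in all 3 panels, at a background of 2.07, 1.90 and 1.89, with chromosome 7 next.

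The directions of these differences were the same in 3 of 3 replicates for fragments, background and fold. The exact two-sided sign-flip permutation test over 3 replicates gave p = 0.25 for each, which is the smallest it can give (adjusted p = 0.333 over 4 comparisons), so no threshold of 0.05 can be reached with this design.

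Peaks of like p-value were compared next. At a given p-value, a higher background needs more fragments and gives a lower fold. The directions below therefore follow from the raised background and are no separate result. Among peaks with a −log10 p below 10, the median summit on chromosome 20 held 41, 34 and 30 fragments, against 29, 24 and 21 elsewhere, a mean ratio of 1.42. Their fold enrichment was 2.42, 2.78 and 2.87 against 2.89, 3.32 and 3.47. Among peaks with a −log10 p of 50 or more the fragment ratio was 1.27 and the fold ratio 0.788. Over the 6 ranges of p-value, the mean fold ratio lay between 0.778 and 0.834. At the weak end, 90% of chromosome 20 peaks had at least 38, 32 and 28 fragments. Of the peaks on other autosomes, 37.7%, 43.8% and 41.7% had fewer than that. A call on a higher background likewise needs more fragments.

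At the strong end the measures differed. By relative fragments, summits of at least 20 times the genome-wide level made up 7.67%, 6.25% and 7.59% of chromosome 20 peaks and 2.63%, 1.98% and 2.82% of the others. A fold of at least 20 was reached by 11, 8 and 13 chromosome 20 peaks, or 1.00%, 0.962% and 1.57%, against 0.883%, 0.691% and 0.947% elsewhere. Among the 12368 autosomal places found in all 3 replicates, chromosome 20 had 4.92%. It held 23 of the 500 highest by geometric mean fold (4.6%) and 62 of the 500 highest by relative fragments (12.4%).

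The raised background was not even along the chromosome. In 5 Mb parts its lowest mean was 1.63 ± 0.0630 (SD, n = 3), from 5000001 to 10000000, and its highest was 2.62 ± 0.116, from 20000001 to 25000000. The 3 parts up to 15000000 lay between 1.55 and 1.75 in any replicate. The 7 parts from 30000001 to the end lay between 1.86 and 2.12. The part with the highest background also had the lowest fold enrichment, 3.05, 3.20 and 3.39. It held 62 consensus places, or 12.4 per Mb, close to the value of the whole chromosome.

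**Figure D3:**
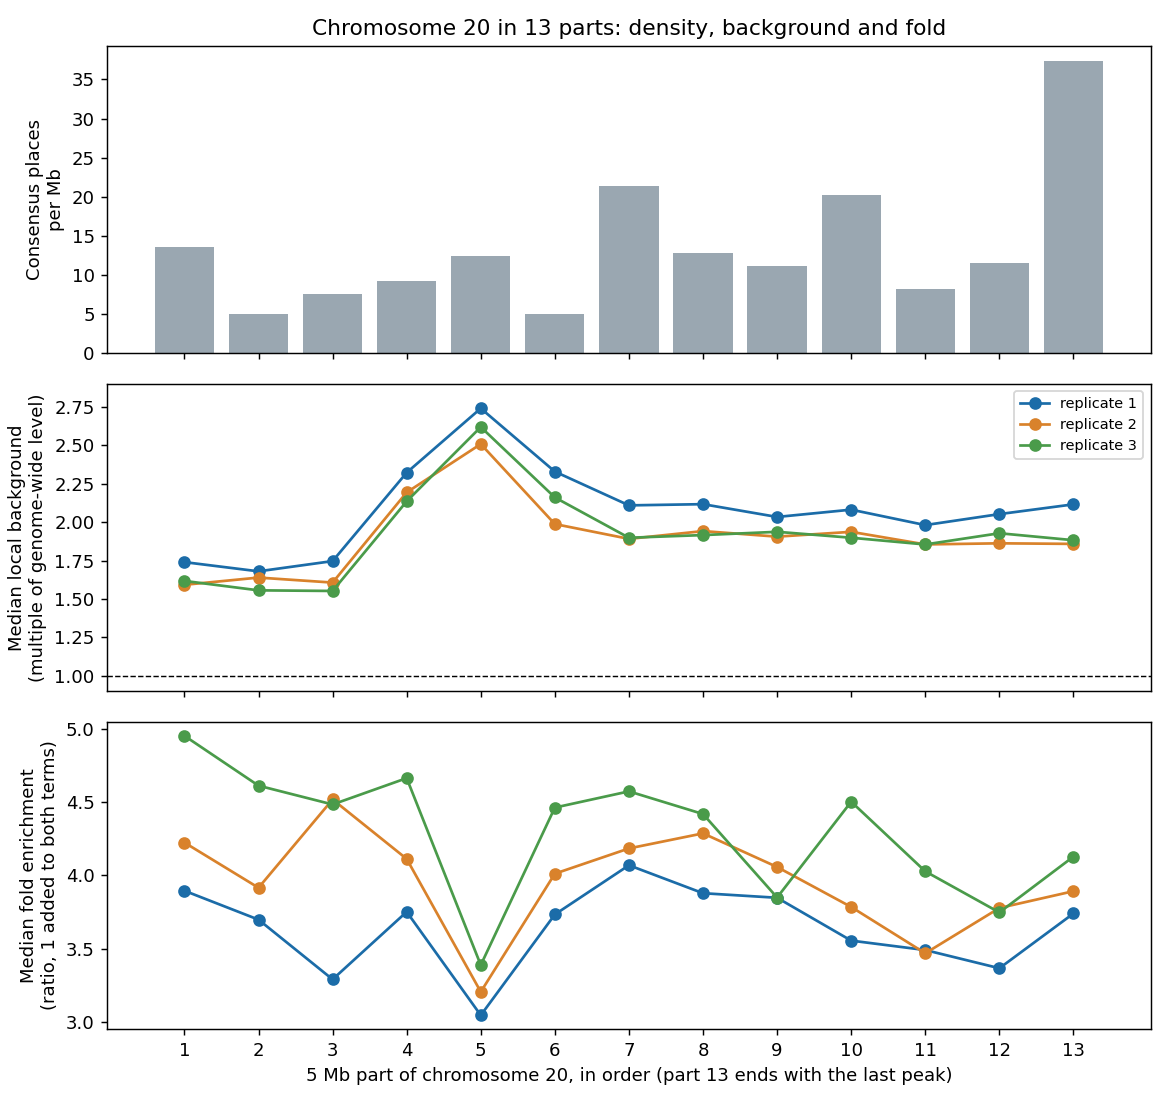
The 13 parts of 5 Mb are in order from the start of chromosome 20 to its last peak, with consensus places per Mb (top, bars), median relative background (middle) and median fold enrichment (bottom) per replicate. The dashed line is the genome-wide level. Background lies below 1.75 in parts 1 to 3, peaks in part 5 at 2.74, 2.51 and 2.62 and stays near 1.9 to 2.1 from part 7 on. Fold is lowest in part 5 in each replicate.

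Fitting 2 steps to the log2 relative background of single peaks in replicate 1 gave 3 stretches. The first step fell between peaks starting at 17549587 and 17592130. Replicate 2, fitted by itself, placed it between 17550248 and 17592144. Replicate 3 placed it between 17662719 and 17674320. The second step was less sharply placed: between 23839015 and 24469768 in replicate 1, between 25290552 and 25310638 in replicate 2 and between 25557864 and 25565825 in replicate 3. The study's methods describe combining immunoprecipitations from one batch of chromatin, without saying whether the 3 libraries share a batch. These positions are therefore not taken as independent of each other.

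With the steps of replicate 1, the first stretch had a median relative background of 1.71, 1.61 and 1.59, the middle one of 2.66, 2.45 and 2.45 and the last one of 2.08, 1.90 and 1.91. The middle to first ratio was 1.56 in replicate 1, which set the steps, and 1.53 and 1.54 in replicates 2 and 3, which did not. The last to first ratio was 1.22, 1.18 and 1.20.

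The density of places and the relative fragments differed between the stretches as well. The first had 8.07 consensus places per Mb, the middle one 15.2 and the last one 14.6. The span of the last stretch includes the 3.62 Mb without a peak in any list. No order of the middle and last densities is therefore read from these values. Median relative fragments were 6.55, 7.70 and 8.41 in the first, 8.99, 8.65 and 9.56 in the middle and 8.09, 8.05 and 9.04 in the last stretch. Relative fragments include the background to which the stretches were fitted. Fragments above the local background lay closer together, at 4.82, 5.95 and 6.79, then 6.21, 6.36 and 7.16, then 5.95, 6.20 and 6.96 times the genome-wide level. Gene density along the chromosome was not compared, and a difference in MYC binding is not read from these values. Median fold enrichment was lowest in the middle stretch in each replicate, at 3.12, 3.45 and 3.76. Its denominator is the background to which the stretches were fitted, so the values are not independent. The first and last stretches had no common order in fold (3.54, 4.23 and 4.87 against 3.73, 3.91 and 4.19). Even the first stretch, with the lowest background, was above the median of chromosome 7, which was 1.59, 1.45 and 1.49 and the highest of the other autosomes.

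Sharing between replicates was near that of the other autosomes in total and differed in its makeup. Of the 490 chromosome 20 places found once, 313 came from replicate 1, against 89 and 88 from replicates 2 and 3. A pair of replicates shared the rest: 84 places by 1 and 2, 84 by 1 and 3, and 22 by 2 and 3. Replicate 1 alone accounted for 24.3% of the places, against 27.8% of all places in the genome. Places without a peak in replicate 1, the deepest library, numbered 199, or 15.4% (95% Wilson interval 13.6% to 17.5%), against 10.9% of all places. This share was the highest of the autosomes, followed by chromosome 5 (14.5%) and chromosome 7 (13.4%).

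The 3 stretches differed in this respect too. In the first stretch 36.7% of 259 places were in replicate 1 alone and 10.0% were absent from replicate 1. In the last stretch the shares were 20.7% and 17.0% of 875 places. In the middle stretch they were 23.9% and 15.5% of 155 places. The first stretch was thus nearest to the genome in its share of places absent from replicate 1 and farthest from it in its share found in replicate 1 alone.

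Counted by single peaks, replicate 1 had 56.1% of its chromosome 20 peaks at fully shared places, and 50.7% elsewhere. In replicate 2 the shares were 76.6% and 78.0%, and in replicate 3 they were 76.6% and 75.9%. The difference was 5.42, −1.43 and 0.723 percentage points. Its mean of 1.57 ± 3.51 (SD, n = 3, exact sign-flip permutation test, p = 0.75, adjusted p = 0.75) was within the spread between replicates. It was −0.252 without replicate 2, counting places found in both remaining replicates. Where peaks had to overlap by at least 50% of both, it was 3.47. At like p-values the shares differed most among weak peaks, and not in one direction. Of peaks with a −log10 p below 10, 12.5%, 41.7% and 42.2% on chromosome 20 and 10.3%, 51.6% and 47.5% elsewhere were at places found in all 3 replicates. From 30 to 50 the shares were 97.1%, 100% and 100% against 96.2%, 99.9% and 100%.

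**Figure D4:**
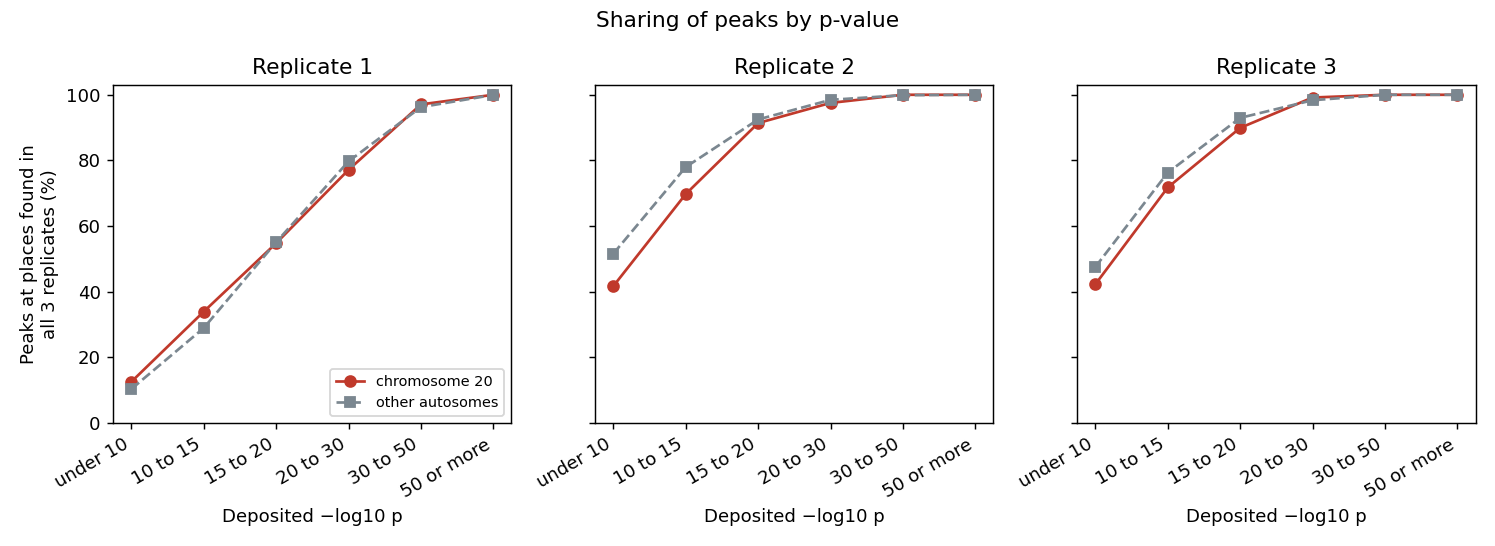
The share of peaks that lie at places found in all 3 replicates (y axis, percent) is drawn by range of deposited −log10 p (x axis), for chromosome 20 (red) and the other autosomes (grey, dashed), 1 panel per replicate. Below 10, chromosome 20 lies lower in replicates 2 (41.7% against 51.6%) and 3 (42.2% against 47.5%) and higher in replicate 1 (12.5% against 10.3%), and the lines meet at the strong end.

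Peaks shared by all replicates were stronger on chromosome 20 as they were elsewhere. A place counts as shared only if each list called it, which favours strong peaks, so this direction is no separate result. Their median fold was 4.91, 4.42 and 4.92, against 2.61, 2.83 and 2.85 for peaks found in 1 replicate. The ratio was 1.88, 1.56 and 1.73, a mean of 1.72 ± 0.158, and 1.67 ± 0.170 on the other autosomes (SD, n = 3). The relative background of both classes was alike, with medians of 2.10, 1.88 and 1.89 for shared peaks and 2.01, 1.97 and 1.93 for peaks found once.

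Replicates ordered chromosome 20 places in a similar way. Spearman's rho of fold enrichment across places was 0.843 for replicates 1 and 2 (693 places), 0.863 for 1 and 3 (693 places) and 0.864 for 2 and 3 (631 places), a mean of 0.857 ± 0.0118 (SD over 3 pairs). On the other autosomes the mean was 0.808 ± 0.0106. Pearson's r of log2 fold was 0.899, 0.906 and 0.919. Relative background at the same places had a rho of 0.571, 0.544 and 0.660, lower than the 0.673, 0.683 and 0.691 of the other autosomes. Places are not independent replicates, and they share a library and its depth. The median distance between summits of one place was 26 bp, 29 bp and 30 bp in these pairs.

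The 15 strongest places are given next, ranked by geometric mean fold among those that every replicate called. The first, from 17948391 to 17950781, had a fold of 55.98, 54.6 and 64.9 and was the strongest of all autosomal places found in 3 replicates. Its summit held 1173, 668 and 645 fragments on a relative background of 2.56, 1.93 and 1.88. It lies in the middle stretch, soon after the first step. In each replicate its fold was above that of every other place on the chromosome.

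The second place, from 42085823 to 42087352, had a fold of 48.5, 35.4 and 42.7 and ranked 5 among autosomal places. Its 785, 423 and 381 fragments were 101, 72.4 and 80.1 times the genome-wide level. The place of rank 3, from 37062607 to 37064205, had a fold of 30.1, 25.6 and 37.1 on 567, 338 and 352 fragments. In replicate 1 it was below the place of rank 4, from 39656701 to 39657738, whose fold was 32.9, 25.1 and 26.5. The order of these neighbours is thus not fixed beyond the spread between replicates.

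In the first stretch, the place from 304692 to 307102 had a fold of 25.3, 28.7 and 24.2. It joined 7 peaks over 2411 bp and had a mean relative background of 1.47 ± 0.208 (SD, n = 3), the lowest of the 15. The place from 2632202 to 2634039 had a fold of 22.9, 25.8 and 22.2. The place from 3787930 to 3789256 had a fold of 25.05, 19.2 and 18.7. The narrowest of the 15, from 10651953 to 10652626, had the widest relative spread, with a fold of 17.8, 13.8 and 24.6. All 4 lie in the first stretch.

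The last stretch held 9 of the 15. Besides those of ranks 2, 3 and 4 they included the place from 33680183 to 33681253, with a mean fold of 25.4 ± 1.56, and the place from 43588720 to 43589640, with 22.3 ± 2.38 (SD, n = 3). Means of 20.1 ± 1.66 and 20.02 ± 1.60 were found from 32890353 to 32891518 and from 33895568 to 33896857. From 47894475 to 47896178 and from 47662335 to 47663931, a pair close to each other, the means were 19.8 ± 1.27 and 18.5 ± 3.12. The thirteenth, from 22743108 to 22744525 in the middle stretch, had a fold of 19.02 ± 2.63 on the highest mean background of the 15, 2.47 ± 0.174.

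Summits agreed closely at these places. The 3 summits of a place lay within 2 to 35 bp, with a median of 16 bp. Of the 105 pairs among the 15 places, 69 had the same order of fold in all 3 replicates, but only 3 of the 14 pairs of neighbours in rank did.

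**Figure D5:**
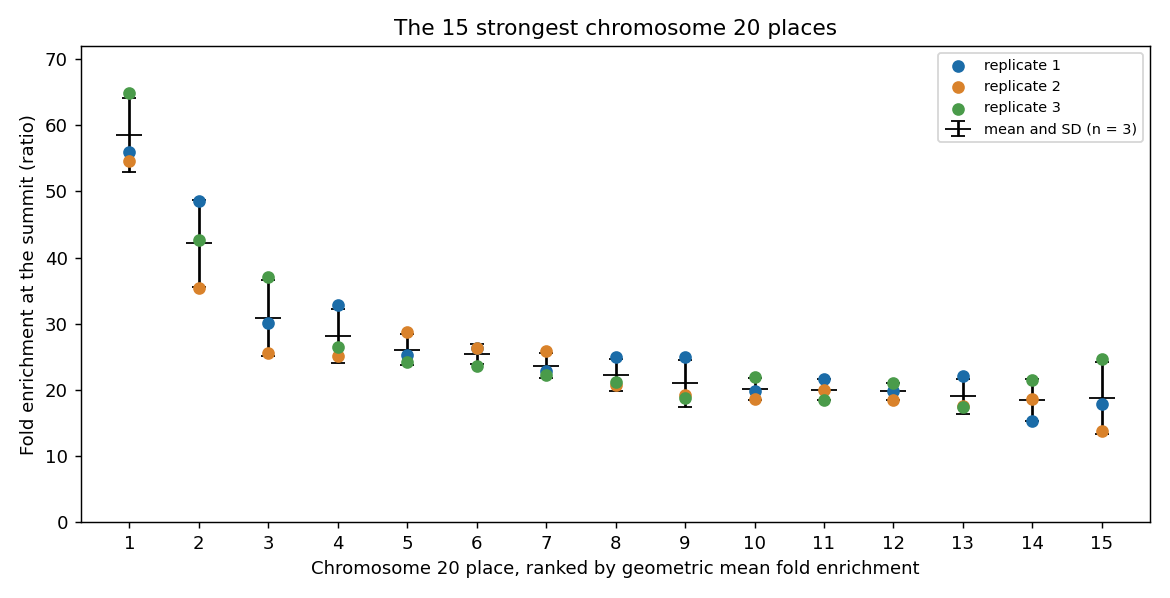
Points give fold enrichment at the summit (y axis, ratio) of the 15 strongest chromosome 20 places in each replicate, ranked by geometric mean fold (x axis), with the mean as a dash and the SD as bars (n = 3). The first place lies above all others, at a mean of 58.5. The second has a mean of 42.2, and its lowest replicate (35.4) lies below the highest of the place of rank 3 (37.1). Further down, the points of neighbouring places overlap.

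Fold was higher at wider peaks of chromosome 20, with a Spearman's rho of 0.678, 0.606 and 0.642 over 1095, 832 and 830 peaks of the same library. Of the 15 strongest places, 13 were at least 1000 bp wide and 2 at least 2000 bp, against 193 and 15 of the 799 consensus places. The 3 widest places were not among the strongest. The widest, from 30181022 to 30184279, joined 6 peaks over 3258 bp and had a fold of 4.19, 4.66 and 6.05. The next, from 60879386 to 60882150, spanned 2765 bp with a fold of 8.17, 12.1 and 11.6. The widest but 2, from 60935833 to 60938495, spanned 2663 bp with a fold of 3.85, 3.64 and 3.85, and its strongest summits lay up to 1125 bp apart.

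The places with the highest background in all 3 replicates were in the middle stretch. Its limits were fitted to the background of replicate 1, so this location is no separate result. From 23624714 to 23625022 the relative background was 3.66, 3.92 and 3.73, and the fold was 3.05, 2.88 and 3.36 on 89, 68 and 62 fragments. From 23617847 to 23618762, close by, the background was 3.43, 3.21 and 3.56 with a fold of 5.84, 5.92 and 6.31. From 22555838 to 22556600 the background was 2.95, 2.89 and 3.71, and the fold of 3.51, 3.63 and 2.36 was lowest where the background was highest.

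At the opposite end, 2 places carried the 3 peaks at the genome-wide level; they were singled out after their values were seen. From 8581218 to 8582563 the relative background was 1.00, 1.14 and 1.00, with a fold of 5.46, 4.06 and 6.25 on 47, 30 and 35 fragments, and the peak was found in all 3 replicates. The 5 Mb part around it had a median of 1.68, 1.64 and 1.56. From 11612312 to 11612544 a peak was called in replicate 2 alone, with 18 fragments and a fold of 2.78.

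Chromosome 20 was last set beside 2 regions of raised background, chromosome 7 from 70 Mb on and chromosome 5 up to 20 Mb, which were chosen with their background known. The mean relative background was 1.95 ± 0.103 on chromosome 20, 1.62 ± 0.0877 on the chromosome 7 region and 1.90 ± 0.0914 on the chromosome 5 region (SD, n = 3). The chromosome 5 region was thus close to chromosome 20 and the chromosome 7 region below both. Median fold enrichment was 3.64, 4.09 and 4.31 on the chromosome 7 region, above chromosome 20 in each replicate, and 3.24, 3.39 and 3.73 on the chromosome 5 region, below chromosome 20 in each replicate. Median relative fragments were 6.81, 6.85 and 7.57 on either region, against 7.83, 8.13 and 9.04 on chromosome 20. Of the 315 places of the chromosome 5 region 32.4% were found in all 3 replicates and 24.8% were absent from replicate 1. The chromosome 7 region had 45.6% and 13.9% of 1077 places.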

How the data were processed

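The authors mapped the ChIP-seq reads with Bowtie2 (hg19) and ran MACS2 separately on every sample, keeping peaks up to a q-value of 0.05. No source used here gives versions, the control library or how duplicates were treated. The deposited lists hold positions, summit offsets, fold enrichment (a ratio), −log10 of the p- and q-value, and a score derived from the q-value, none scaled across libraries.

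Whole fragments and backgrounds were recovered from fold and Poisson −log10 p, matching within 0.001 for 100% of peaks. The genome-wide level was set to the lowest background found in each list, and a peak was counted at that level within 0.0005 of it. Peaks were merged by 1 bp overlap. Positions count from 1. Chromosome length was taken to the end of the last peak. In 13 autosomes 715 peaks lay past the hg38 sequence end, so hg38 served only for counts over whole chromosomes. Stretches came from a least-squares fit of 2 steps with at least 20 peaks each. Differences from the other autosomes were tested with the exact sign-flip permutation test over 3 replicates, with Benjamini-Hochberg adjustment over 4.

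Named places were fixed as the 15 strongest by geometric mean fold, the 3 widest, the 3 of highest background, the 3 longest empty stretches, and the fullest and emptiest 5 Mb parts; the gene lists of that rule, E-boxes at summits and distances to gene starts could not be placed without hg19. Members, lists and comparison regions were chosen with earlier results of these data known. The steps, stretches, gene and E-box counts and comparison regions were added after the data were seen. Scripts used Python 3.11.15, numpy 2.4.6, pandas 2.3.3, scipy 1.17.1 and matplotlib 3.10.9, and were tested on simulated data.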

Additional observations from a re-analysis of the deposited data

How the results depend on the processing

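Of 70 alternatives over 8 results, 54 moved by less than a set spread (counts, by less than 1.5 times). This spread was the SD over replicates, or over pairs of replicates for rho. For the density ratio it was 0.153, from the counting interval. The consensus on chromosome 20 ran from 609 (all 3 replicates required) to 791 places. The density ratio of 2.19 ran from 2.198 to 2.36 with a replicate left out (highest without replicate 1), and was 1.69 per protein-coding gene. The fold ratio of 0.865 moved to 0.875 with places found in all 3 replicates, 0.885 without the middle stretch and 0.832 with nothing added. The background ratio of 1.81 was 1.80 at places found in all 3 replicates, 1.83 without chromosomes 5, 7 and 9, 1.91 against the median of chromosome medians and 1.78 without the middle stretch. The fragment ratio of 1.43 was 1.41 at a q-value of at most 0.001, 1.44 without chromosomes 5, 7 and 9, 1.48 against the median of chromosome medians, 1.41 without the middle stretch and 1.36 for fragments above the local background. These ratios kept their direction in all alternatives run. The difference in sharing of 1.57 percentage points reversed to −0.252 without replicate 2 (range −0.252 to 1.01 with a replicate left out). With a replicate left out, sharing meant places found in both remaining replicates, unlike the main measure. The difference was 3.47 under a reciprocal overlap of at least 50%. The cause was not tested. Leaving out a replicate gave a rho between 0.842 and 0.864. The settings without the middle stretch, per gene, with the hg38 length and with fragments above background were chosen after seeing the data. No paired analysis was possible because the only groups with common replicate numbers are MYC and IgG, and no IgG list was compared. E-box and gene start results were not run. With 3 libraries no exact p can be below 0.25, and fragment numbers at weak peaks limit what a missing call shows.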
